A study of Homo sapiens with 24 samples.

Results

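The inter-alpha-trypsin inhibitor (ITI) genes described here are ITIH1, ITIH2, ITIH3 and ITIH4, which encode heavy chains of the family, and AMBP. AMBP encodes no heavy chain but a precursor that is split into the light chain, bikunin, and a separate plasma protein, alpha-1-microglobulin. The genes were taken by symbol, with earlier results of these data known, and make up 5 of the 26475 gene symbols in the count files. HepG2 cells, a line grown from a human liver tumour that still makes many plasma proteins, were sequenced as bulk RNA in 24 libraries, 3 in each of 8 groups. Without a cytokine the cells received the solvent DMSO, 50 nM of ABBV-075, or ABBV-744 at 50 or 500 nM. The other 4 groups received interferon gamma (IFNg), alone or together with 50 nM of ABBV-075, 50 nM of ABBV-744 or 500 nM of ABBV-744. Both compounds inhibit BET proteins, which bind acetylated lysines of histones through paired bromodomains. ABBV-075 occupies both bromodomains and ABBV-744 prefers the second. The dose of IFNg and the treatment times of the ABBV-744 and IFNg groups are not given in the sources used here. For ABBV-075 the study's methods give a shorter time than the one named beside DMSO, so these groups may differ in treatment time as well.

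Inter-alpha-inhibitor circulates in plasma as bikunin joined to ITIH1 and ITIH2 heavy chains, and pre-alpha-inhibitor as bikunin joined to an ITIH3 heavy chain. The bridge between the proteins is the chondroitin sulfate chain of bikunin, to which each heavy chain is attached when the end of its precursor is removed. Outside the vessels the protein TSG-6 moves the heavy chains onto hyaluronan, which stiffens the matrix around cells. Bikunin itself inhibits trypsin and related serine proteases through Kunitz domains, and alpha-1-microglobulin is a lipocalin that binds heme. ITIH4 differs from the other heavy chains in that it circulates without bikunin and is cleaved by plasma kallikrein. Hepatocytes are the main source of all of these proteins, so a hepatoma line is a place where their transcripts can be compared.

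The heavy-chain genes sit in clusters, and AMBP lies apart from them. ITIH1 (chr3:52777595-52792068, plus strand), ITIH3 (chr3:52794768-52808799, plus strand) and ITIH4 (chr3:52812962-52830688, minus strand) follow each other on chromosome 3 of GRCh38 in GENCODE v44, 2699 bp and 4162 bp apart. ITIH2 (chr10:7703316-7749520, plus strand) starts 36317 bp from the start of ITIH5, which is read the opposite way. AMBP (chr9:114060127-114078328, minus strand) has 10 exons in its main transcript, against 21 in ITIH2, 22 in ITIH1, 22 in ITIH3 and 24 in ITIH4. The 3 genes whose levels moved most alike over the 8 groups were ITIH3, ITIH4 and AMBP, and the 300 bases around the start site of each are printed here so that they can be read side by side. They are RefSeq sequences of GRCh38.p14, given on the strand of the gene at chr3:52794546-52794845 (plus), chr3:52830623-52830922 (minus) and chr9:114078251-114078550 (minus). Capitals mark matches, on either strand, to short motifs that were picked after the sequences had been seen.
ITIH3: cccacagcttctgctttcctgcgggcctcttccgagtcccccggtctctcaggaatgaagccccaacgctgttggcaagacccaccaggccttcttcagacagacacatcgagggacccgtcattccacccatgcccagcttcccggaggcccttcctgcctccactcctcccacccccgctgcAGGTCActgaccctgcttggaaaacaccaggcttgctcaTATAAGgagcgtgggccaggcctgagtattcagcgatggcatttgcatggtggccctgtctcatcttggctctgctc
ITIH4: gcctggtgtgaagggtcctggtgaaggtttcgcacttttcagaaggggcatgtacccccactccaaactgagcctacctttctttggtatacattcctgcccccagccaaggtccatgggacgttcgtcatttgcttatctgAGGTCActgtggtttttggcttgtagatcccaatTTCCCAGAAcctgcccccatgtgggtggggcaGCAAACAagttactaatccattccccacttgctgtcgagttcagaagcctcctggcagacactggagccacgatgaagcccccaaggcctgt
AMBP: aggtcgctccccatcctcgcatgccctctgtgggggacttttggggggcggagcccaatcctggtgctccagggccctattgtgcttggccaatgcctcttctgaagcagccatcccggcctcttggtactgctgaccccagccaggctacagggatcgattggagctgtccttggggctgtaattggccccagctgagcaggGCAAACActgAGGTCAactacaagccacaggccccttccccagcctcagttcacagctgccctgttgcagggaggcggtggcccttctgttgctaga

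Each of the 3 windows holds AGGTCA, a half-site read by HNF4 and other nuclear receptors, at -66 in ITIH3, -108 in ITIH4 and -37 in AMBP, counted from the start site to the first base. The same letters occur in 13.83% of 35116 such windows. GCAAACA, the reverse of a FOXA core that 3.89% of windows hold, is at -42 in ITIH4 and at -47 in AMBP. ITIH3 alone has a TATA-like TATAAG, at -27, a match present in 5.59% of windows. ITIH4 alone has a STAT-type element of the form TTCNNNGAA, TTCCCAGAA at -74, and 7.66% of windows have some match to that form. Other motifs searched matched none of the 3 windows: CAAAGT, another HNF4 half-site, the TATA box TATAAA, the HNF1 half-site GTTAAT and the FOXA core TGTTTAC. Such matches describe the sequence and say nothing about binding in these cells. ITIH2 has no entry in the sequence table, and the windows listed for ITIH1 lie inside the gene and are not shown.

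Depth on genes was low for the number of reads taken. Between 2978982 and 4304103 reads per library were counted on genes (median 3462418.5), 12.0% to 16.8% of all reads, while 56.0% to 69.4% aligned to several places. Levels are given as CPM, counts scaled to a common library total after TMM, on the linear scale, and 3 counts in a library, used as a floor for seeing a gene, were 0.666 to 0.999 CPM. That floor covers counting error only, since the reads carry no molecular tags. ITIH2, ITIH3 and AMBP were far above it in all 24 libraries, ITIH4 was near it in the groups that received IFNg with a compound, and ITIH1 was near it nearly everywhere. The study describes the DMSO and ABBV-075 libraries as independent samples, from cells treated in triplicate. The sources used here do not say whether these were treated on separate days, or how the other groups were replicated. Each p-value therefore measures the spread between these libraries only. With 3 libraries against 3, the smallest 2-sided p-value that shuffling the labels can give is 0.1. In bulk RNA, fewer cells that make a transcript and less of it in each cell look the same.

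The cells carried the markers of their label. Summed CPM of 14 hepatocyte and hepatoma markers, all of them present, was 25621 to 29427 by group mean, and APOB was the most abundant of them. That sum hides moves in opposite directions, since APOB differed between groups by more than the sum did, as given with the group levels below. Bile-duct markers, led by KRT19, summed to 269.5 to 438 CPM, fibroblast and stellate markers to 13.5 to 25.7 CPM with no count for COL1A2, COL3A1 or LUM, leukocyte markers to 9.40 to 25.4 CPM with no count for PTPRC, and endothelial markers to 1.14 to 7.91 CPM. The treatments left their usual traces too. Against DMSO, IFNg raised GBP1 (log2 fold change 4.89), PSMB9 (4.49) and IRF1 (4.26). HEXIM1, a transcript that BET inhibitors raise in many cells, rose with ABBV-075 (log2 fold change 1.43, adjusted p-value 1.7e-11) and with ABBV-744 at 500 nM (0.73, 4.4e-05), and was not called at 50 nM of ABBV-744.

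Libraries also differed in the GC content of the genes they favoured, and the difference followed the groups. The Spearman correlation between a gene's GC content and its deviation from the mean over all libraries ran from 0.55 to 0.70 in ABBV-744 at 50 nM and from 0.33 to 0.70 at 500 nM. It ran from -0.65 to -0.61 in IFNg with ABBV-744 at 50 nM and from -0.59 to -0.27 with 500 nM, so the libraries with and without IFNg did not overlap at either dose. DMSO libraries gave 0.10 to 0.33, IFNg 0.16 to 0.50, ABBV-075 -0.56 to 0.20 and IFNg with ABBV-075 -0.49 to -0.12. ITIH1 (GC 56.0%), ITIH3 (54.7%), ITIH4 (56.3%) and AMBP (55.4%) lie at percentiles 75.05, 71.38, 76.01 and 73.54 of the tested genes, and ITIH2 (45.6%) at percentile 42.8. A shift of GC-rich against GC-poor genes therefore touches 4 of the 5 genes and ITIH2 much less. For the 5 genes, values from a fit with a correction for GC content are given below wherever they end or add a call, or move a called value by over 1.5 times. For other named genes and for the counts of the gene lists no corrected values are given, so whether their calls hold with the correction is not shown. Totals of the corrected fit over all genes are given for the interactions of ABBV-744 only. Values that were not called moved by as much or turned their sign in several comparisons, and these are given only in part. Beside such a p-value stands the range of adjusted p-values which that result took over all alternatives, those leaving out 1 library aside. The correction takes out whatever follows GC content in a library, whether it arose in the cells or in the handling of the RNA.

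**Figure D1:**
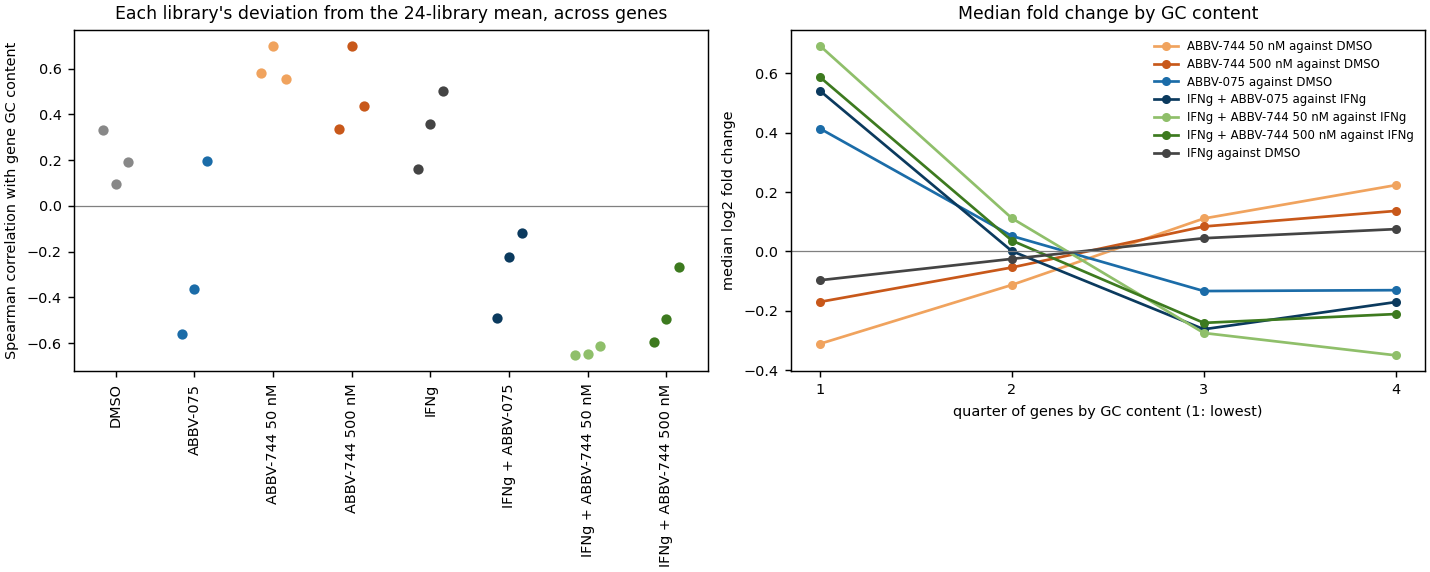
Left: Spearman correlation of each library's log2 CPM deviations with gene GC content, 1 point per library in each of the 8 groups. Right: median log2 fold change in 4 equal bins of the tested genes by GC content, for the 7 treatment comparisons. ABBV-744 at 50 nM against DMSO goes from -0.31 in the lowest bin to 0.22 in the highest.

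The plot of GC content shows how steep the gradient is. For ABBV-744 at 50 nM against DMSO the median log2 fold change climbs over the bins from -0.31 to 0.22, and for IFNg with ABBV-744 at 50 nM against IFNg it drops from 0.69 to -0.35. ITIH3 and AMBP belong to the third bin, ITIH4 and ITIH1 to the highest, and ITIH2 to the second.

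In solvent-treated cells the genes differed widely in level. Divided by exonic length, AMBP reached 479.7 CPM per kb and ITIH2 442 CPM per kb, against 31.9 for ITIH3, 1.52 for ITIH4 and 0.740 for ITIH1. ITIH2 alone made up 92.8% of the summed heavy-chain level per kb in DMSO and between 91.7% and 95.2% in every group. The ratio of AMBP to the summed heavy chains was 1.01 per kb in DMSO. It compares transcript levels only, since bikunin can carry several heavy chains and ITIH4 is not joined to it. Under ABBV-075 it was 1.34, under ABBV-744 1.31 at 50 nM and 1.32 at 500 nM, under IFNg 1.06, and under IFNg with ABBV-075 1.33. IFNg with ABBV-744 gave 1.01 at 50 nM and 1.15 at 500 nM. The ratio compares a GC-rich gene with a sum dominated by ITIH2, and the part of the GC gradient in it was not tested. Ratios of 1.34 in ABBV-075 and 1.31 in ABBV-744 at 50 nM stood beside mean correlations with GC content of -0.24 and 0.61. After GC correction the log2 fold changes of AMBP and ITIH2 were -0.06 and -0.24 for ABBV-744 at 50 nM against DMSO (0.12 and -0.28 without). For IFNg with ABBV-744 at 50 nM against IFNg they were -0.13 and -0.38 (-0.46 and -0.36 without), so whether that group has a raised ratio depends on the correction. For ABBV-075 against DMSO they were -0.25 and -0.81 (-0.40 and -0.82 without). All 5 genes took up 0.265% of counts in DMSO and 0.149% in IFNg with ABBV-075, the lowest share.

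**Figure D2:**
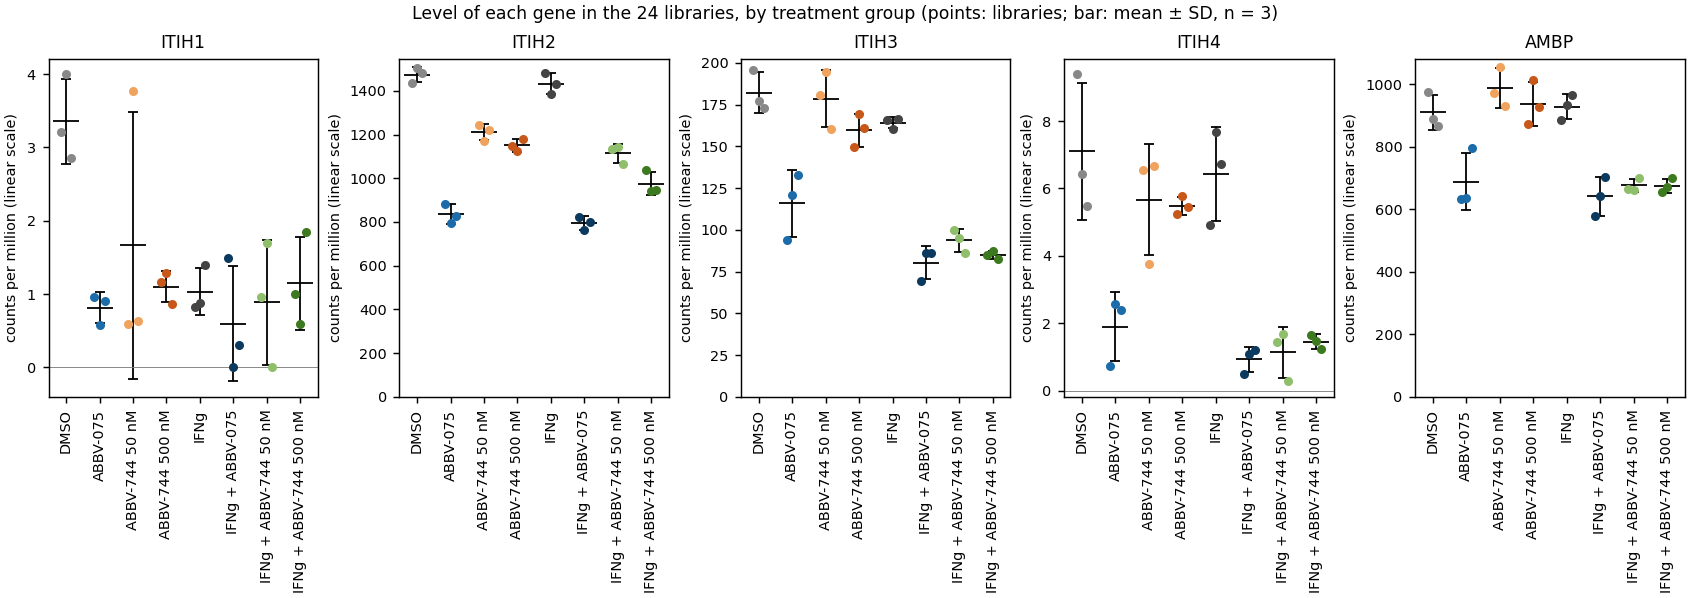
CPM (linear scale) of ITIH1, ITIH2, ITIH3, ITIH4 and AMBP in the 8 treatment groups; points are libraries and bars are mean and SD of 3. ITIH2 is highest in DMSO (mean 1474) and lowest in IFNg with ABBV-075 (796), and AMBP is highest in ABBV-744 at 50 nM (987).

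The levels plot shows different orders of the groups for different genes. For ITIH2 the groups without a compound stand above all others (lowest library 1387 CPM), followed by the ABBV-744 groups, and both ABBV-075 groups come last. For ITIH3, ITIH4 and AMBP the groups fall instead into an upper and a lower set of 4 with no overlap between them. The upper set holds DMSO, IFNg and both doses of ABBV-744 alone, and the lower set holds ABBV-075 and every group that had IFNg with a compound. ITIH4 passed the filter on low counts only through the upper set, as set out below. Other values fall into the same sets by group mean. APOB had 5899 to 6775 CPM in the upper set and 10370.0 to 12191 CPM in the lower, and the other 13 hepatocyte and hepatoma markers together were higher in the upper. Summed fibroblast markers were 22.5 to 25.7 CPM in the upper set and lower in every group of the lower set, leukocyte markers 17.3 to 25.4 and 9.40 to 11.3 CPM, bile-duct markers 382 to 438 and 269.5 to 344 CPM, and the mean correlation of the libraries with GC content 0.21 to 0.61 and -0.64 to -0.24. Their part in the result was not tested. ITIH1 shows no such break: neighbouring groups overlap all the way down.

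ABBV-075 against DMSO asks what blocking both bromodomains of BET proteins does to these genes without a cytokine. BET proteins help RNA polymerase start transcribing at strongly active genes, and genes for plasma proteins are among the most active in hepatocytes. All values against DMSO in this and the next comparisons share the same 3 control libraries. Adjusted p-values come out of the quasi-likelihood test of edgeR and were adjusted by the Benjamini-Hochberg method over 11676 genes. Of the 5 genes, 5 fell at an adjusted p-value of at most 0.05, as did 22.3% of all genes tested. ITIH1 is among the 5 only through a filter that it passed by its DMSO libraries, as set out below. ITIH4 passed that filter only through 4 groups in which it is high, DMSO among them, so the count rests on ITIH2, ITIH3 and AMBP. None rose, and 0 were higher at an unadjusted p-value under 0.05 or in DESeq2, while 25% of all genes rose. The study's own threshold, which also asks for an absolute log2 fold change of 1.5, was passed by 2 of them (ITIH1 and ITIH4) and by 4.61% of all genes, and ITIH4 no longer passes it without ABBV-075 replicate 1 (log2 fold change -1.48).

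ITIH2, the most abundant heavy chain, had 1437, 1505 and 1480.1 CPM in DMSO and 884, 793 and 828 CPM with ABBV-075, with no overlap. It fell to 56.7% of the DMSO level (log2 fold change -0.82, 95% confidence interval -0.96 to -0.67, adjusted p-value 3.6e-10). ITIH3 went from 196, 177 and 173 CPM to 93.8, 121 and 133 CPM. It fell to 63.6% of the level in DMSO (log2 fold change -0.65, standard error 0.11, adjusted p-value 1.9e-05). ITIH2 and ITIH3 both encode chains that are joined to bikunin, and the difference between their changes was not tested. ITIH4 had 9.38, 6.44 and 5.49 CPM in DMSO and 0.724, 2.58 and 2.41 CPM with ABBV-075, from 3 to 9 counts per library. Its log2 fold change was -1.92 (interval -2.67 to -1.16, adjusted p-value 1.1e-04), the largest loss among the genes that stood above the floor in DMSO by a wide margin. ITIH1 had 12, 18 and 12 counts in DMSO and 4, 2 and 3 with ABBV-075 (log2 fold change -1.99, interval -3.25 to -0.74, adjusted p-value 0.00883). ITIH1 passed the low-count filter only because of its DMSO libraries, with 4 of 24 libraries over 2.888 CPM and 3 of these DMSO, so a gene kept in this way had to be higher in DMSO. Its call therefore adds little. ITIH4 passed with 12 of 24 libraries over 2.888 CPM, all in DMSO, IFNg and both doses of ABBV-744 alone. It was thus tested only through groups where it is high. This favours its calls wherever such a group is compared with ABBV-075 or with IFNg and a compound.

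AMBP, the light-chain gene, had 973, 889.8 and 867 CPM in DMSO and 633, 637 and 795 CPM with ABBV-075. Every treated library lay below every control, and AMBP fell to 75.6% of its DMSO level (log2 fold change -0.40, interval -0.59 to -0.22, adjusted p-value 6.0e-04). The highest treated value belongs to the library whose correlation with GC content was 0.20, and the lowest to the library at -0.56, and their part in the result was not tested. With the GC correction the log2 fold change of AMBP was -0.25 (adjusted p-value 6.6e-04, range 2.3e-05 to 0.0161). The interval of AMBP lies wholly above that of ITIH2, while the ratio of light-chain to heavy-chain transcript is higher under ABBV-075.

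**Figure D3:**
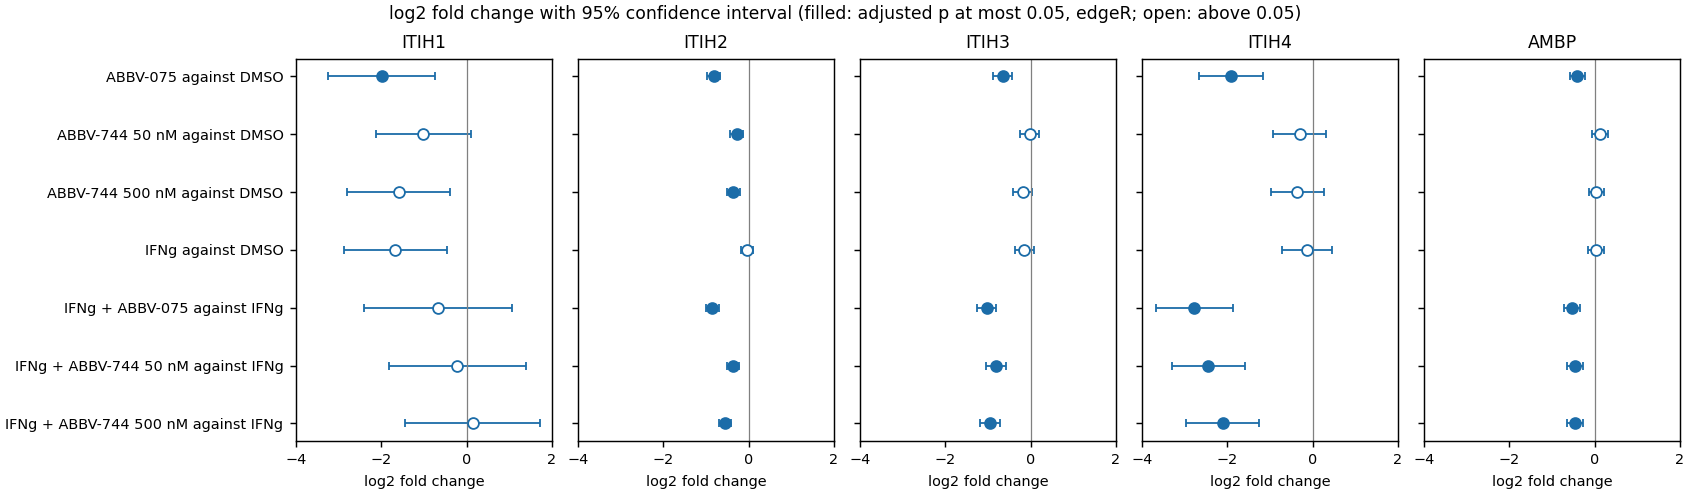
Log2 fold change with 95% confidence interval of each gene (panels) in the 7 treatment comparisons; filled points have an adjusted p-value of at most 0.05. ITIH4 against IFNg lies at -2.77 with ABBV-075, and ITIH2 is filled in every comparison except IFNg against DMSO.

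The fold-change plot can be read down each panel. ITIH2 keeps to the same side with each compound and is further from zero with ABBV-075 than with ABBV-744, while ITIH3, ITIH4 and AMBP have open points with ABBV-744 alone, those of ITIH4 (-0.31 and -0.36) as far from zero as those of ITIH2 and with wider intervals. The wide bars of ITIH1 come from its few counts.

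ABBV-744 against DMSO asks what blocking mostly the second bromodomain does. At 50 nM, 1 of the 5 genes fell (6.66% of all genes) and 0 rose (6.12%), with 0 higher at an unadjusted p-value under 0.05 and 0 called higher in DESeq2. At 500 nM, 1 fell (5.64%) and again 0 rose in edgeR, unadjusted or in DESeq2 (5.74%). The study's threshold was passed by 0 of the 5 genes at 50 nM (0.334% of all genes) and by 0 at 500 nM (0.488%). ABBV-744 changed far fewer genes than ABBV-075 did, and the gene it lowered at both doses is ITIH2.

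ITIH2 had 1244, 1171 and 1223 CPM at 50 nM and 1149, 1124 and 1181 CPM at 500 nM, all below the lowest DMSO library at 1437. Its log2 fold change was -0.28 at 50 nM (interval -0.43 to -0.14, adjusted p-value 0.0113). This is 82.3% of the DMSO level, and the call is lost when DMSO replicate 2 (adjusted p-value 0.0558) or ABBV-744 replicate 2 (0.0795) is left out (range over the other alternatives 1.6e-05 to 0.0312). At 500 nM the log2 fold change was -0.36 (interval -0.50 to -0.21, adjusted p-value 0.00119). ITIH2 therefore fell with the selective compound as well, by less than with ABBV-075. ITIH3 had 181, 194 and 161 CPM at 50 nM, overlapping DMSO, and its log2 fold change was -0.03 (interval -0.25 to 0.19), or -0.20 with the GC correction, not called. At 500 nM ITIH3 had 149, 169 and 161 CPM, all under the lowest DMSO library (173), and its log2 fold change of -0.19 (interval -0.41 to 0.03, adjusted p-value 0.279) was not called. With the GC correction that value was -0.30 with an adjusted p-value of 0.00641, a call (range 0.00641 to 0.3997). ITIH3 is GC-rich and the ABBV-744 libraries favour GC-rich genes, which is the direction in which the correction lowers it.

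ITIH4 kept 6.56, 3.77 and 6.67 CPM at 50 nM (log2 fold change -0.31, interval -0.93 to 0.31, or -0.50 with the GC correction, not called). At 500 nM it kept 5.23, 5.77 and 5.46 CPM (-0.36, interval -0.98 to 0.26), overlapping DMSO at either dose with some libraries below it. ITIH1 had 2, 12 and 2 counts at 50 nM and 4, 4 and 3 at 500 nM, with intervals of -2.13 to 0.10 and -2.80 to -0.38. Its adjusted p-value at 500 nM was 0.0793, and with the GC correction 0.0340, a call (range 0.0152 to 0.0849), and the filter that kept ITIH1 by its DMSO libraries favours such a call. AMBP had 973, 1056 and 931 CPM at 50 nM and 872, 1012 and 927 CPM at 500 nM, both overlapping DMSO. The log2 fold change of AMBP was 0.12 at 50 nM (interval -0.07 to 0.30) and 0.04 at 500 nM (interval -0.14 to 0.23). GC correction turned the sign of both (-0.06 and -0.08) without a call. The light-chain gene was thus not called with ABBV-744 alone, at doses where ITIH2 was.

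IFNg against DMSO asks whether the cytokine alone moves these genes. IFNg has its own set of targets in liver cells, and the acute-phase answer of the liver is driven mainly by other cytokines. Of the 5 genes, 0 fell (0.188% of all genes) and 0 rose (2.08%), and 0 passed the study's threshold (0.839%). With edgeR 1 gene, ITIH1, was lower at an unadjusted p-value under 0.05 and 0 were higher, and DESeq2 called 0. ITIH2 had 1482, 1387 and 1429.6 CPM under IFNg, overlapping DMSO, and its log2 fold change was -0.04 (interval -0.19 to 0.10). ITIH3 had 166, 160.3 and 166 CPM, all below the lowest DMSO library (log2 fold change -0.15, interval -0.37 to 0.07). ITIH4, whose start region holds the STAT-type element, had 4.91, 7.68 and 6.71 CPM and a log2 fold change of -0.13 (interval -0.73 to 0.46). AMBP had 885, 934 and 964 CPM, with a log2 fold change of 0.03 (interval -0.16 to 0.21), or -0.05 with the GC correction. Expressed as a share of the DMSO level, these intervals reach down to 88.0% for ITIH2 and 89.7% for AMBP, so a larger loss of either lies outside them. ITIH1 had 3, 3 and 5 counts against 12, 18 and 12 in DMSO, a log2 fold change of -1.67 (interval -2.88 to -0.47) with an adjusted p-value of 0.216. In a fit of only these 6 libraries ITIH1 was called (adjusted p-value 0.0336, range 0.0336 to 0.628), under the same limit that it was kept by its DMSO libraries.

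IFNg with ABBV-075 against IFNg alone asks what the compound does in cells that also see the cytokine. The 3 IFNg libraries serve as controls for all of the next comparisons. Of the 5 genes, 4 fell (27.3% of all genes), 0 rose (26.2%), with 0 higher unadjusted or in DESeq2, and 1, ITIH4, passed the study's threshold (6.71%). ITIH2 had 824, 763 and 801 CPM, far below the lowest IFNg library (1387). Its log2 fold change was -0.85 (interval -0.99 to -0.70, adjusted p-value 1.1e-10), close to the value without IFNg. ITIH3 had 69.1, 86.2 and 85.9 CPM against 160.3 or more, and fell to 48.9% of the IFNg level (log2 fold change -1.03, standard error 0.11, adjusted p-value 1.6e-08). ITIH4 had 0.497, 1.09 and 1.21 CPM, from 2, 4 and 4 counts, so its transcript was at the floor of what these libraries can show. Its log2 fold change was -2.77 (interval -3.68 to -1.87, adjusted p-value 6.9e-06). ITIH1 had 6, 0 and 1 counts, and the interval of its log2 fold change ran from -2.42 to 1.06. AMBP had 578, 641 and 702 CPM and fell to 69.0% of the IFNg level (log2 fold change -0.53, interval -0.72 to -0.35, adjusted p-value 1.6e-05). With the GC correction the value for AMBP was -0.28 (adjusted p-value 1.9e-04, range 3.0e-08 to 2.8e-04). The intervals of ITIH2 and AMBP barely touch, so with the cytokine too the heavy chain has the larger estimated loss.

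IFNg with ABBV-744 against IFNg asks the same of the selective compound. At 50 nM 4 of the 5 genes fell (22.4% of all genes) and 0 rose (24.2%), and at 500 nM 4 fell (20.2%) and 0 rose (21.1%). None was higher at an unadjusted p-value under 0.05 or in DESeq2 at either dose. The study's threshold was passed by 1 gene at 50 nM (2.42% of all genes) and 1 at 500 nM (2.49%), in both cases ITIH4. ITIH2 had 1136, 1145 and 1065 CPM at 50 nM, a log2 fold change of -0.36 (interval -0.51 to -0.22, adjusted p-value 1.5e-04). At 500 nM it had 1037, 943 and 945 CPM (log2 fold change -0.56, interval -0.70 to -0.41, adjusted p-value 1.1e-06). These estimates for ITIH2 are a little larger than those for ABBV-744 without IFNg and smaller than that for ABBV-075. ITIH3 had 99.8, 94.9 and 86.2 CPM at 50 nM, well under the IFNg libraries, with a log2 fold change of -0.81 (interval -1.04 to -0.58, adjusted p-value 2.4e-06). The GC correction brought this to -0.49 (adjusted p-value 1.8e-05, range 1.1e-10 to 1.8e-05). At 500 nM ITIH3 had 85.2, 87.5 and 82.7 CPM (log2 fold change -0.95, interval -1.18 to -0.71, adjusted p-value 3.6e-07). Without IFNg ITIH3 was called only at 500 nM and only with the GC correction, and the interaction given below tests the difference.

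ITIH4 was left with 6, 6 and 1 counts at 50 nM and 5, 5 and 4 at 500 nM, against 18, 26 and 24 under IFNg. Its log2 fold changes were -2.44 (interval -3.30 to -1.59, adjusted p-value 3.1e-05) and -2.11 (interval -2.96 to -1.26, adjusted p-value 1.9e-04). ITIH1 stayed at the floor, with intervals of -1.83 to 1.39 at 50 nM and -1.44 to 1.72 at 500 nM. AMBP had 664, 662 and 701 CPM at 50 nM, below the lowest IFNg library (885). Its log2 fold change was -0.46 (interval -0.64 to -0.27, adjusted p-value 1.7e-04). With the GC correction the value was -0.13 and was not called (adjusted p-value 0.110, range 2.5e-06 to 0.123). At 500 nM AMBP had 655, 670.4 and 699 CPM and a log2 fold change of -0.46 (interval -0.64 to -0.27, adjusted p-value 2.1e-04), or -0.19 with the GC correction (adjusted p-value 0.0139, range 4.1e-06 to 0.0173). The GC correction moves AMBP, ITIH3 and ITIH4 by nearly the same log2 amount here, which is most of the smaller fall of AMBP and less of the larger falls of ITIH3 and ITIH4.

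Whether a compound acts differently in the presence of IFNg is a question for the interaction, the difference between its log2 fold change with IFNg and its log2 fold change without. For ABBV-075, 0 of the 5 genes were called (0.0428% of all genes), 1 had an unadjusted p-value under 0.05, and DESeq2 called 0. That gene was ITIH3, with a difference of -0.38 (interval -0.70 to -0.06, adjusted p-value 0.542). ITIH2 differed by -0.03 (interval -0.23 to 0.18), ITIH4 by -0.85 (interval -2.15 to 0.45) and AMBP by -0.13 (interval -0.39 to 0.13). With the GC correction the differences were 0.05 for ITIH2 and -0.03 for AMBP, neither called. For ITIH2 and AMBP the intervals are narrow, so a large difference between the settings would lie outside them.

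For ABBV-744 the interaction called 3 of the 5 genes at 50 nM (46.5% of all genes) and 3 at 500 nM (28.4%). These are ITIH3, ITIH4 and AMBP at both doses. ITIH3 differed by -0.78 at 50 nM (interval -1.10 to -0.47, adjusted p-value 2.2e-04) and by -0.76 at 500 nM (interval -1.08 to -0.44, adjusted p-value 9.7e-04). ITIH4 differed by -2.14 at 50 nM (interval -3.22 to -1.05, adjusted p-value 0.00192) and by -1.75 at 500 nM (interval -2.84 to -0.67, adjusted p-value 0.0142). AMBP differed by -0.57 at 50 nM (interval -0.83 to -0.31, adjusted p-value 7.1e-04) and by -0.50 at 500 nM (interval -0.76 to -0.24, adjusted p-value 0.00465). ITIH2, the gene of middling GC content, differed by -0.08 at 50 nM (interval -0.29 to 0.12) and by -0.20 at 500 nM (interval -0.40 to 0.01), neither called. ITIH1, near the floor, had positive differences of 0.79 at 50 nM (interval -1.23 to 2.82) and 1.73 at 500 nM (interval -0.32 to 3.78), neither called. Over 11476 genes the interaction itself had a Spearman correlation with GC content of -0.77 at 50 nM and -0.65 at 500 nM, and medians of 1.02 in the lowest and -0.58 in the highest GC bin at 50 nM.

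With the GC correction the interaction of AMBP shrank to -0.06 at 50 nM (adjusted p-value 0.687, range 2.8e-05 to 0.698). At 500 nM it shrank to -0.11 (adjusted p-value 0.460, range 6.8e-04 to 0.478), and neither value was called. ITIH3 kept -0.29 at 50 nM, no longer called (adjusted p-value 0.0712, range 8.4e-06 to 0.0712), and -0.37 at 500 nM, still called (0.0256, range 2.6e-05 to 0.0256). ITIH4 kept -1.61 at 50 nM, still called (adjusted p-value 0.0258, range 5.5e-04 to 0.0288), and -1.36 at 500 nM, not called (0.0748, range 0.00491 to 0.0810). After the correction 1 of the 5 genes was called at each dose, ITIH4 at 50 nM and ITIH3 at 500 nM. Over all 11676 genes the corrected fit called 1037 higher and 1125 lower at 50 nM, and 710.0 higher and 830.0 lower at 500 nM. For the light-chain gene the corrected difference between the settings is thus near zero, and for the heavy chains ITIH3 and ITIH4 it is smaller and in the same direction. ITIH4 rests on 1 to 6 counts per library in the groups with IFNg and ABBV-744. ITIH4 passed the low-count filter only through DMSO, IFNg and both doses of ABBV-744 alone, which favours such a difference.

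**Figure D4:**
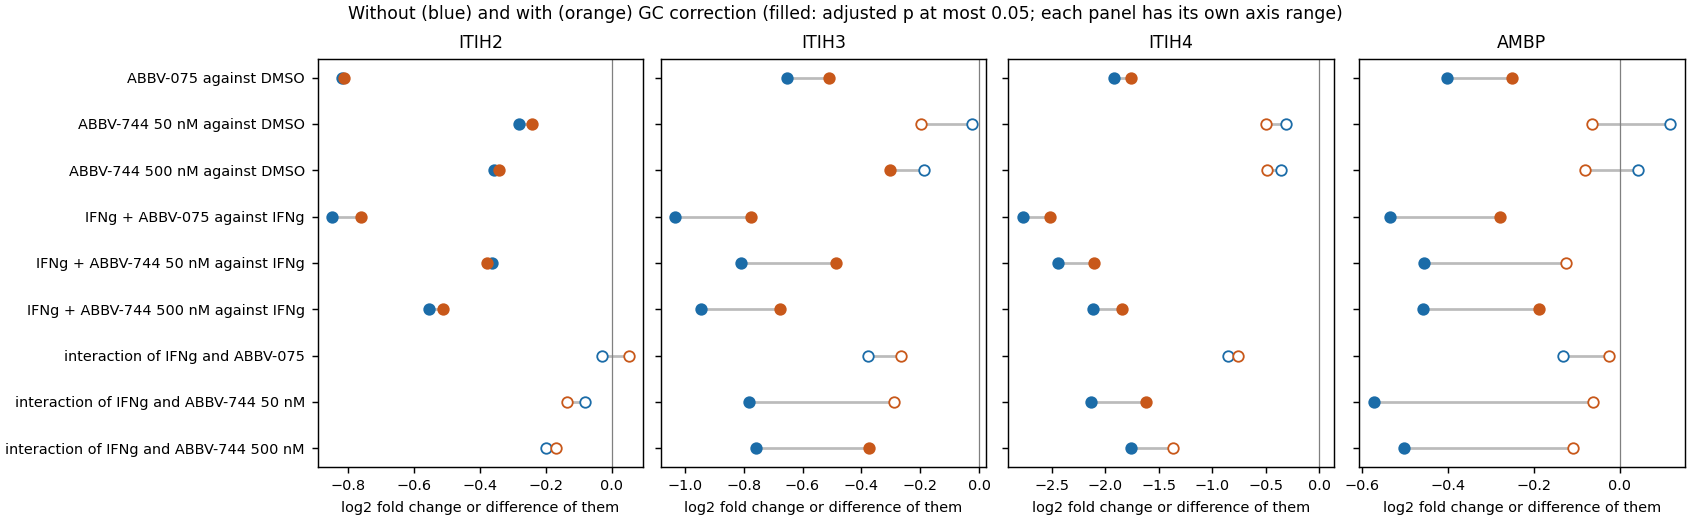
Log2 fold change, or difference of log2 fold changes for interactions, of the genes without (blue) and with (orange) the GC correction; filled points have an adjusted p-value of at most 0.05 and each panel has its own range. AMBP in the interaction of IFNg and ABBV-744 at 50 nM moves from -0.57 to -0.06, and ITIH2 hardly moves.

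The plot of corrected values sets the blue and orange points of each gene in the same panel. For ITIH2 they nearly coincide. For ITIH4 the gap is small beside the fold change where it fell by a call against DMSO or IFNg. It is wider in the interactions of ABBV-744 (-2.14 to -1.61 at 50 nM, and -1.75 to -1.36 at 500 nM, where the call is lost). For AMBP the gap takes up a larger part of the fold change.

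The compounds were also compared with each other at the same dose of 50 nM. Of the 5 genes, 4 differed between ABBV-744 and ABBV-075 (51.6% of all genes), and all 4 were higher with ABBV-744. ITIH2 was 0.54 log2 units higher with ABBV-744 (interval 0.39 to 0.68, adjusted p-value 7.8e-07), with 1171 CPM or more against 884 or less. ITIH3 was 0.63 higher (interval 0.40 to 0.85, adjusted p-value 3.3e-05), or 0.31 with the GC correction (adjusted p-value 0.00219, range 1.1e-06 to 0.00729). ITIH4 was 1.61 higher (interval 0.80 to 2.42, adjusted p-value 0.00130). AMBP was 0.52 higher (interval 0.33 to 0.71, adjusted p-value 3.0e-05), or 0.19 with the GC correction (adjusted p-value 0.0116, range 6.7e-07 to 0.0143). ITIH1 was not called (interval -0.54 to 2.5). At equal dose ITIH2, ITIH3, ITIH4 and AMBP were thus lower with the pan-BET compound. The 51.6% of all genes called covers both directions, and the share higher with ABBV-744 is not given here.

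In the presence of IFNg the same comparison called 1 of the 5 genes (26.1% of all genes), ITIH2, which was 0.49 log2 units higher with ABBV-744 (interval 0.34 to 0.63, adjusted p-value 8.5e-06). ITIH3 was 0.22 higher, not called (interval -0.01 to 0.46, adjusted p-value 0.155). The GC correction made it 0.29, a call (adjusted p-value 0.0119, range 0.0119 to 0.232). AMBP differed by 0.08 (interval -0.11 to 0.26), or by 0.15 with the GC correction (adjusted p-value 0.0534, range 0.0534 to 0.828). ITIH4 had an interval of -0.94 to 1.60 and ITIH1 of -1.31 to 2.23, too wide to say more. ITIH2 was thus called between the compounds in both settings, and ITIH3 in both only with the GC correction or, with IFNg, with library size alone (0.30, adjusted p-value 0.0345).

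Raising ABBV-744 from 50 nM to 500 nM called almost no gene. Without IFNg 0 of the 5 genes differed between the doses (0.0771% of all genes), with 0 at an unadjusted p-value under 0.05 and 0 in DESeq2. With IFNg 0 differed (0.0171% of all genes), 1 had an unadjusted p-value under 0.05 and DESeq2 called 0. That gene was ITIH2, lower by 0.19 log2 units at the higher dose (interval -0.34 to -0.05, adjusted p-value 0.389). Without IFNg the difference for ITIH2 was -0.08 (interval -0.22 to 0.07). ITIH3 differed by -0.16 (interval -0.38 to 0.06) without IFNg and by -0.14 (interval -0.37 to 0.10) with it. AMBP differed by -0.07 (interval -0.26 to 0.11) without IFNg and by -0.00 (interval -0.19 to 0.18) with it. ITIH4 (interval -0.72 to 0.62 without IFNg) and ITIH1 (interval -2.04 to 0.88) are bounded less closely, and HEXIM1 was not called between the doses either (0.46, adjusted p-value 0.110).

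Genes whose group means run most like those of a member place the family among other transcripts. Over the 8 group means of log2 CPM, ITIH2 ran closest to AKR1C3 (Pearson correlation 0.994), a steroid and prostaglandin reductase, and to NREP (0.993). ITIH3 ran closest to VTN (0.995), which encodes vitronectin, a plasma and matrix protein made by hepatocytes. ITIH4 ran closest to PES1 (0.994), a ribosome biogenesis factor, and to PGC (0.993), a pepsinogen. AMBP ran closest to NCSTN (0.997), part of gamma-secretase, and to the liver carboxylesterase CES1 (0.995). ITIH1 reached at most 0.938, with REPS1. Among the members, ITIH3 and ITIH4 correlated at 0.971, ITIH4 and AMBP at 0.9697, and ITIH3 and AMBP at 0.961, while ITIH2 reached 0.794 with ITIH3, 0.826 with ITIH4 and 0.810 with AMBP. ITIH3, ITIH4 and AMBP share a high GC content as well, and its part in the result was not tested. Correlations over 8 means are high for many of the 9384 genes ranked and only order them.

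Of the rest of the family only ITIH5 had counts enough to be tested. ITIH5 had 17.8 CPM in DMSO and 12.9 with ABBV-075, and fell there (log2 fold change -0.46, adjusted p-value 0.0171) and with ABBV-075 and IFNg against IFNg (-0.55, adjusted p-value 0.00542). ITIH6 had no count in any library, and neither had TNFAIP6, which encodes TSG-6, so the protein that moves heavy chains onto hyaluronan was not seen at the transcript level here. ITIH4-AS1, which lies within ITIH4 on the other strand, had no count either. ITIH5 lies beside ITIH2 and went the same way with ABBV-075, at a far lower level.

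The machinery that builds and joins the ITI proteins moved in both directions, with more genes falling than rising with ABBV-075. Among 21 tested genes for the chondroitin sulfate linkage and chain, 3 rose and 8 fell with ABBV-075, 2 rose and 2 fell with ABBV-744 at 50 nM, and 0 rose and 3 fell at 500 nM. Over all genes 25% rose and 22.3% fell with ABBV-075, 6.12% and 6.66% with ABBV-744 at 50 nM, and 5.74% and 5.64% at 500 nM, which is the setting for every list below. CSGALNACT1, which starts chondroitin chains such as that of bikunin, fell with ABBV-075 (log2 fold change -1.93, adjusted p-value 5.8e-05) and with ABBV-744 at 500 nM (-1.81, adjusted p-value 0.00106) and 50 nM (-1.32, adjusted p-value 0.0114). CHST15, a sulfotransferase, fell with ABBV-075 (-1.53, adjusted p-value 1.8e-06). With IFNg present 4 of the 21 rose and 10 fell with ABBV-075, 1 rose and 6 fell with ABBV-744 at 50 nM, and 3 rose and 4 fell at 500 nM, where 27.3%, 22.4% and 20.2% of all genes fell and 26.2%, 24.2% and 21.1% rose. Of 9 precursor-processing genes 0 rose and 4 fell with ABBV-075, and FURIN, a protease of the secretory pathway, fell most (-1.23, adjusted p-value 3.6e-08). SPCS3, a subunit of the signal peptidase, fell with ABBV-744 at 50 nM (-0.69, adjusted p-value 0.0104) and rose with the same dose and IFNg against IFNg (0.78, adjusted p-value 3.3e-04).

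On the hyaluronan side 10 genes were tested, of which 4 rose and 3 fell with ABBV-075, and 3 rose and 5 fell when IFNg was present. CEMIP, which breaks hyaluronan down, fell with ABBV-075 (log2 fold change -2.32, adjusted p-value 2.3e-11) and with ABBV-744 at 500 nM (-1.59, adjusted p-value 1.5e-07) and 50 nM (-1.26, adjusted p-value 1.0e-05). The hyaluronidase genes HYAL1 (0.46 at 50 nM and 0.55 at 500 nM) and HYAL2 (0.39 and 0.45) were called higher with ABBV-744. VCAN was called lower at both doses (-1.41 and -1.53). LYVE1, a hyaluronan receptor, fell with ABBV-075 (-2.57, adjusted p-value 1.2e-05) and with ABBV-744 at 50 nM (-1.13, adjusted p-value 0.0322) and 500 nM (-1.35, adjusted p-value 0.0129). LYVE1 had 6.14 CPM in DMSO and 0.970 CPM with ABBV-075, which is at the floor. Its group mean was above 2.888 CPM, the cutoff of the low-count filter, only in DMSO and IFNg. HMMR, the hyaluronan-mediated motility receptor and a cell-cycle gene, rose with IFNg and ABBV-744 at 500 nM against IFNg (2.04, adjusted p-value 2.4e-08). Fewer targets of the inhibitors could be tested: of 12 proteases bound or inhibited by ITI proteins, 4 had no count and 5 were tested. MASP1, of the lectin pathway of complement, fell with ABBV-075 (-1.19, adjusted p-value 0.0322) and with ABBV-075 and IFNg (-2.08, adjusted p-value 0.00130). HPN, of the same list, rose with ABBV-744 at 50 nM (0.64, adjusted p-value 0.0114).

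Other secreted proteins of the liver give AMBP and ITIH2 a setting. Of 14 tested genes in the list of secreted serine protease inhibitors and their relatives, in which SERPINA6, SERPINA7 and SERPINF1 are not known as inhibitors, 13 fell and 0 rose with ABBV-075, and the median of the list was -0.85 where that of all genes was 0.04. SERPIND1, heparin cofactor II, fell most (-1.36, adjusted p-value 1.0e-11), and SERPINC1, antithrombin, came next (-1.21, adjusted p-value 8.2e-08). ITIH2 at -0.82 sits near the middle of that list and AMBP at -0.40 towards its weaker end. With ABBV-744 alone 3 rose and 2 fell at 50 nM, and 2 rose and 2 fell at 500 nM. With IFNg present all 14 fell with ABBV-075, 11 with ABBV-744 at 50 nM and 13 at 500 nM, against 27.3%, 22.4% and 20.2% of all genes. With IFNg alone 3 of the 14 rose and 1, SERPINA3, fell (-0.36, adjusted p-value 0.0409). The risers were SERPING1, the C1 inhibitor (3.20, interval 2.41 to 3.99, adjusted p-value 5.9e-07), SERPINA7 (0.67, adjusted p-value 1.3e-06) and A2M (0.59, adjusted p-value 6.9e-06), while AMBP was not called. Of 5 tested Kunitz-type inhibitors besides AMBP, 1 rose and 0 fell with ABBV-075, namely APLP2 (0.23, adjusted p-value 0.0280). Of 5 tested liver lipocalins besides AMBP, 3 fell with ABBV-075 and 5 with ABBV-075 and IFNg. ORM1 fell by 0.98 log2 units with ABBV-075 (adjusted p-value 8.5e-09). RBP4, another lipocalin, was not called with ABBV-075 and rose with ABBV-744 at 50 nM (0.36, adjusted p-value 0.0123), where AMBP was not called.

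**Figure D5:**
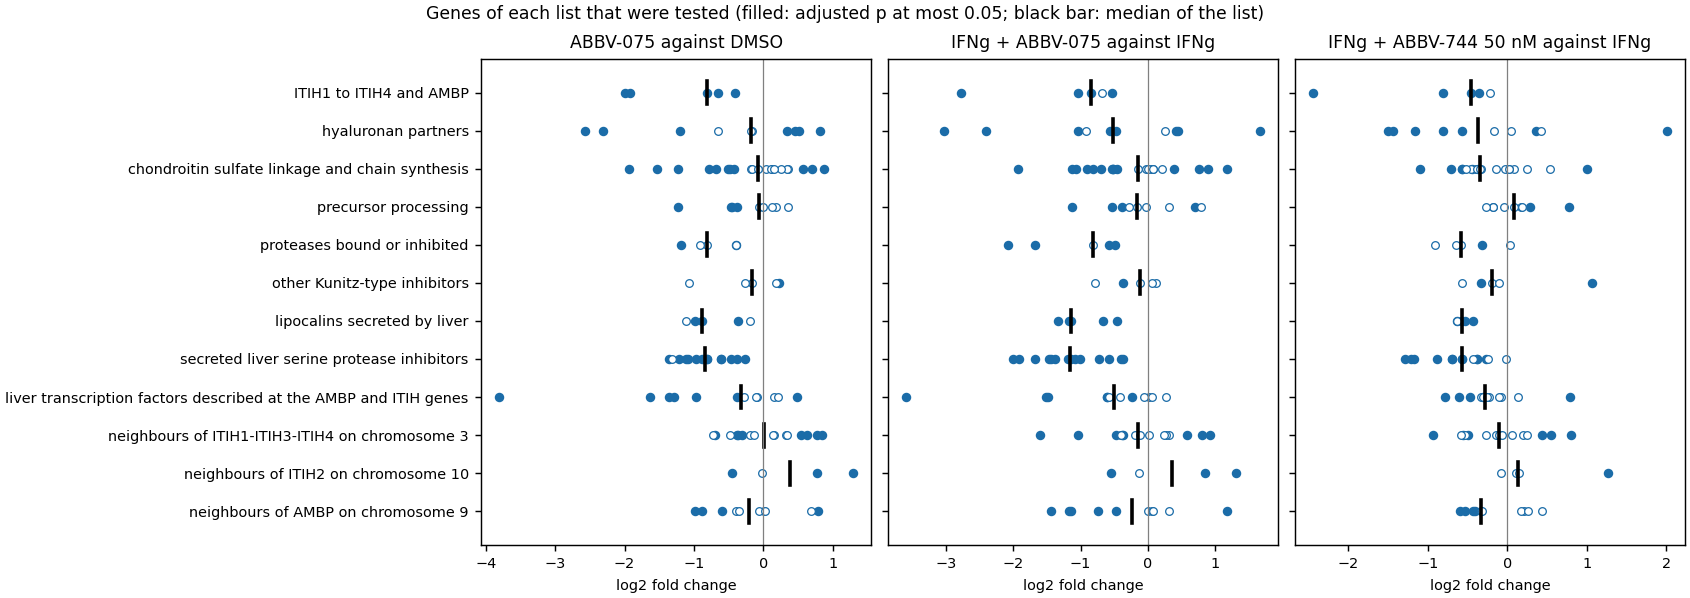
Log2 fold change of the tested genes of each list in several comparisons; points are genes, filled at an adjusted p-value of at most 0.05, and the black bar is the median. Secreted serine protease inhibitors have a median of -0.85 with ABBV-075 against DMSO.

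The plot of lists shows that the secreted liver inhibitors and lipocalins lie to the left with ABBV-075, where ITIH2, ITIH3 and AMBP also lie. Lists built on the chemistry of chondroitin sulfate or hyaluronan have genes on both sides. Among the transcription factors described at the AMBP and ITIH genes, 1 of 12 was higher and 6 were lower with ABBV-075. NR1H4, the bile acid receptor, fell by 3.81 log2 units with ABBV-075 (adjusted p-value 2.6e-15), by 1.10 with ABBV-744 at 50 nM and by 1.15 at 500 nM. It was the only factor called lower with ABBV-744 alone. HNF4A (0.30 at 50 nM and 0.33 at 500 nM), CEBPA (0.45 and 0.50) and STAT3 (0.33 and 0.47) were called higher at both doses. IFNg raised STAT3 (0.70, adjusted p-value 3.8e-07) and CEBPB (0.51, adjusted p-value 0.00754), factors of the acute-phase answer, without a call in any of the 5 genes.

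Genes near the members did not share a common course. Of 16 tested neighbours of the ITIH1, ITIH3 and ITIH4 cluster, 4 rose and 4 fell with ABBV-075 (median of the list 0.00), and 22.3% of all genes fell. ITIH3 fell in the same comparison, and so did ITIH4 and ITIH1 by calls that their passage through the filter favours. NEK4, beside ITIH1, rose (0.84, adjusted p-value 9.6e-05), and so did PBRM1 (0.77, adjusted p-value 4.0e-04), while NT5DC2 fell (-0.70, adjusted p-value 2.5e-06). MUSTN1, the nearest gene beyond the start of ITIH4, had 0 to 3 counts per library. Next to ITIH2, KIN rose with ABBV-075 (0.77, adjusted p-value 0.0280). TAF3, which lies beyond KIN and ATP5C1, rose as well (1.29, adjusted p-value 7.2e-05), so of 4 tested neighbours of ITIH2 2 rose and 1 fell. Around AMBP 1 of 10 tested genes rose and 3 fell with ABBV-075. ALAD, which lies beyond ZNF618 and RGS3 from AMBP, rose (0.78, adjusted p-value 0.00136), and the acute-phase genes ORM1 and ORM2, which lie on the same arm of chromosome 9, fell.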

How the data were processed

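RNA from HepG2 cells in 8 treatment groups of 3 libraries was sequenced by the authors after ribosomal RNA had been removed, with directional libraries. Reads were processed with CASAVA 1.8.2, trimmed with Trimmomatic 0.33 and aligned to hg38 with STAR 2.7.1 by the authors, and the files hold raw counts per gene symbol as deposited, in the layout of STAR's gene counts. The annotation behind these counts is not given in the sources used here. The column of reads from the gene's strand was used, which held 98.3% to 98.5% of the reads assigned by strand. Between 14.8% and 25.3% of reads per library met no gene on that strand, and they were left out of library sizes together with unmapped, multimapping and ambiguous reads.

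Counts of all 24 libraries were fitted in a single model with a mean for each group (edgeR 4.0.16 in R 4.3.3). Genes were kept by filterByExpr with a minimum count of 10, libraries were scaled by TMM, and the quasi-likelihood F test was run for 14 comparisons. These are 7 of a treatment against DMSO or IFNg, 4 between compounds or doses, and 3 interactions. A gene was called at a Benjamini-Hochberg adjusted p-value of at most 0.05 over the 11676 genes tested, and an absolute log2 change of 1.5 or more was added for the study's threshold. Standard errors follow from the fold change and its F value, and intervals are 95% intervals of the same fit.

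Symbols were matched to GENCODE v44 for positions, exonic length and GC content, 23161 directly and 1370 through an older name, and 98.29% of tested genes had a GC value. Start-site sequences came from RefSeq. Alternatives were DESeq2 1.42.0, RLE scaling, library size alone, no filter, at least 10 counts in every library, a replicate block, counts of both strands together, a fit without the 10 most counted genes, only the groups compared, each library left out, and a GC correction with and without the block. That correction gives each gene and library an offset from a lowess curve (span 0.3) of log2 CPM deviations on GC content. Likeness is the Pearson correlation of group means of log2 CPM (prior count 2, alternative 0.5) over genes whose mean is 3 or more. Tables and plots were made with Python 3.11.15, pandas 2.3.3, numpy 2.4.6 and matplotlib 3.10.9.

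The members and all lists were chosen with earlier results of these data known. Lists cover the rest of the ITIH family, hyaluronan partners, chondroitin sulfate synthesis, precursor processing, proteases, Kunitz inhibitors, lipocalins, secreted serine protease inhibitors, transcription factors, chromosomal neighbours, cell markers and treatment checks. From each list up to 3 called genes with the largest absolute log2 fold change per treatment comparison could be named, besides the members, TNFAIP6, the other ITIH genes, the neighbours by their counts and, for each member, the 5 genes most like it.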

Additional observations from a re-analysis of the deposited data

Results flagged for a closer look

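The interaction test found that ABBV-744 acted differently with and without IFNg on ITIH3, ITIH4 and AMBP, at an adjusted p-value of at most 0.05 at either dose, as did 46.5% of all genes at 50 nM and 28.4% at 500 nM. For ITIH3 the difference of log2 fold changes was -0.78 at 50 nM and -0.76 at 500 nM. For ITIH4 it was -2.14 at 50 nM and -1.75 at 500 nM. For AMBP it was -0.57 at 50 nM and -0.50 at 500 nM. In each case the gene was lower with the compound and IFNg than the separate effects of the compound and of IFNg add up to. The libraries of these groups differ in GC content in the same way, with Spearman correlations between the interaction and gene GC content of -0.77 at 50 nM and -0.65 at 500 nM, and with the GC correction the differences are -0.29 and -0.37 for ITIH3, -1.61 and -1.36 for ITIH4, and -0.06 and -0.11 for AMBP. Of these 6 calls, 4 are lost with that correction (adjusted p-values 0.0712 for ITIH3 at 50 nM, 0.0748 for ITIH4 at 500 nM, 0.687 and 0.460 for AMBP). Both doses share the same DMSO and IFNg libraries, so they are not independent observations. ITIH4 passed the low-count filter only through DMSO, IFNg and both doses of ABBV-744 alone, which favours its calls.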

How the results depend on the processing

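Of 733 log2 fold changes of the 5 genes recomputed under alternatives other than leaving out a library, 713 kept their side of the threshold, with some that were not called turning their sign, 10 lost a call and 10 gained one, and none called in the report changed sign. Out of 70 values each, DESeq2, RLE scaling, the counts of both strands and a fit without the 10 most counted genes changed 0 calls, library size alone 1, no filter 1, and the GC correction 8 with or without the block. Fitting only the groups compared changed 2 of 61, and asking for at least 10 counts in every library changed 0 of 42, since ITIH1 and ITIH4 were no longer tested.

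The larger moves in the counts of called genes were as follows. Smaller moves came where 1 member dropped out of a count. For IFNg with ABBV-744 at 50 nM against IFNg, AMBP lost its call with the GC correction (adjusted p-value 0.110) and with the GC correction and block (0.123). Where at least 10 counts were asked for, ITIH4 was not tested and dropped out of every count. With ABBV-075 against DMSO, 3 genes were called where at least 10 counts were asked for, because only 3 were tested. With ABBV-744 at 500 nM against DMSO, where 1 gene was called in the report, the count was 2 without a filter, 2 with only the groups compared, 3 with the GC correction and 3 with the GC correction and block. IFNg against DMSO gave 1 with only the groups compared. For ABBV-744 at 50 nM against ABBV-075, both with IFNg, the count was 2 with library size alone, 2 with the GC correction and 2 with the GC correction and block. The interactions of IFNg with ABBV-744 fell from 3 called genes to 1 with the GC correction and to 1 with the GC correction and block, at 50 nM and likewise at 500 nM. The cause was not tested for any of these, apart from the fewer genes tested.

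Leaving out 1 library at a time kept 508 of 510 log2 fold changes on their side of the threshold. The exceptions are ITIH2 with ABBV-744 at 50 nM against DMSO, not called without DMSO replicate 2 (log2 fold change -0.27) or without ABBV-744 replicate 2 (-0.25), so the count of called genes ranged from 0 to 1 there.

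A replicate block, with the replicate number as a second factor, changed 0 of 70 calls. Libraries with the same number had residual correlations of -0.18 to 0.34, above 0.1 in 7 of 33 pairs of libraries, and 13 of 24 libraries were closest to a library of their own number. No source used here says that libraries with the same number were handled together, and whether they were is not settled by these values.

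Among the members, library size alone changed 1 of 70 calls and RLE scaling 0. Over all genes, scaling moved the median and the share of calls in each direction, and these moves were not compared with those of the members. Without TMM the median of all genes in the interaction of IFNg and ABBV-744 at 50 nM went from -0.12 to 0.05. The share of calls that were higher was 47.9% for ABBV-744 at 50 nM against DMSO, 32.9% with RLE scaling, 27.2% with library size alone and 31.4% with DESeq2. At 500 nM it was 50.5%, 40.5% with RLE scaling and 35% with library size alone. With library size alone it went from 58.7% to 69.9% for ABBV-744 at 50 nM against ABBV-075 with IFNg, and in the interactions of ABBV-744 from 51.7% to 67.4% at 50 nM and from 55.9% to 65.7% at 500 nM.

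Of 120 group means, 116 moved by less than their SD, and ITIH1 shared 1 of its 5 most similar genes when the prior count was 0.5. Depth limits ITIH1 and ITIH4 most. With 2978982 to 4304103 reads on genes per library, ITIH1 had 0 to 18 counts and ITIH4 1 to 35, so their intervals span more than a log2 unit and small changes in them could not be seen. ITIH2, ITIH3 and AMBP had at least 256 counts in every library.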
